A study of Homo sapiens with 12 samples.

Results

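The 10 genes described here encode transcription factors and LIM-only cofactors whose misplaced expression defines molecular subtypes of T-cell acute lymphoblastic leukemia (T-ALL): TAL1, LYL1, LMO1, LMO2, TLX1, TLX3, NKX2-1, NKX2-5, HHEX and MEF2C. They were taken as the rows of both deposited tables whose Ensembl identifier maps to these symbols, and all 10 were found among 58288 genes. The values are fragment counts from RNA-Seq of 12 libraries, 6 from HPB-ALL and 6 from KOPTK1, both established human T-ALL cell lines. In each line, 3 libraries came from cells carrying an shRNA against SHQ1, an assembly factor of H/ACA ribonucleoproteins, and 3 from cells carrying a control shRNA against GFP. Both shRNAs were delivered in pLKO.1 lentivirus, and all cells, controls included, were selected with 2 μg/ml puromycin. By the methods the cells were grown for 48 h and then selected for another 48 h, whereas the labels name 48 h with puromycin.

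The 12 count columns are headed by numbers only, 1 to 6 in the KOPTK1 table and 7 to 12 in the HPB-ALL table. The labels tie each table to its cell line but no number to an shRNA, so shSHQ1 and shGFP libraries were not separated and the effect of the knockdown was not tested. Each line is therefore described over its 6 libraries, of which 3 are knockdowns, and n is 12 wherever the lines are compared. Nothing in the labels says that the libraries came from separate cultures, so p-values measure only the spread between these libraries, which may be technical. Fewer cells of a type and less RNA per cell cannot be told apart in such bulk samples.

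In the developing thymus, most of these factors are silent or are shut off before T cells mature. TAL1 and LYL1 are basic helix-loop-helix proteins that pair with E proteins such as TCF3 and TCF12 on DNA. LMO1 and LMO2 do not bind DNA themselves and bridge these pairs to LDB1 and GATA factors. TLX1, TLX3, NKX2-1, NKX2-5 and HHEX are homeobox proteins, and MEF2C is a MADS-box factor. In T-ALL they are usually switched on by translocation, deletion or new enhancers, and TAL1 commonly appears together with LMO1 or LMO2. HPB-ALL is commonly listed as a TLX3-rearranged line and KOPTK1 as an LMO2-rearranged line.

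Promoter sequences from RefSeq (GRCh38.p14, 250 bases before to 50 bases after a start site) matched 8 of the 10 factors, with 16 start sites in all. None was matched for LMO2 and NKX2-5. Those of TAL1, LMO1 and HHEX, the highest factors that had one, and of TLX3, the factor listed for HPB-ALL, are printed 5′ to 3′ on the strand of the gene. Capitals mark the letters GATA (the core bound by GATA factors) and TGTGGT (the core bound by RUNX factors), searched on both strands, so that TATC and ACCACA count as matches too. The windows are chr1:47232286-47232585 and chr1:47231666-47231965 for the upstream and downstream start sites of TAL1, chr11:8268738-8269037 for LMO1, chr10:92689705-92690004 for HHEX and chr5:171308998-171309297 for TLX3. TAL1 and LMO1 lie on the minus strand, and HHEX and TLX3 on the plus strand.
TAL1 upstream: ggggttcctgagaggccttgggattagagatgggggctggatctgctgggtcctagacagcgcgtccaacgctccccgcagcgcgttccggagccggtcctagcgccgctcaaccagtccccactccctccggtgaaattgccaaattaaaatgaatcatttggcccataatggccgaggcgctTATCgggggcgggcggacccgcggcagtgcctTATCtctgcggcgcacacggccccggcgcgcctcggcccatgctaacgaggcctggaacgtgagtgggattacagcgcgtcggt
TAL1 downstream: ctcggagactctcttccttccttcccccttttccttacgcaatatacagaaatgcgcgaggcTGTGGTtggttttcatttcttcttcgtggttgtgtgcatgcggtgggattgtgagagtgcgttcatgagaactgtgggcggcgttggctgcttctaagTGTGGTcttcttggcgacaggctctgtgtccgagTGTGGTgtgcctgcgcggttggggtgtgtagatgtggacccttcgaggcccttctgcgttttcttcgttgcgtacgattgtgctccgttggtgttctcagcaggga
LMO1: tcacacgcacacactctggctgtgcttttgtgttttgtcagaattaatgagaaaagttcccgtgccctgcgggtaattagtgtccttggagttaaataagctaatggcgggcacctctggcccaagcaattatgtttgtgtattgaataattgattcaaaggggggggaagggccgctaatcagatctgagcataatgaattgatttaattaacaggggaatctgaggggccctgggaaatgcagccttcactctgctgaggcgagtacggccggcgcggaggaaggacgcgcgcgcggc
HHEX: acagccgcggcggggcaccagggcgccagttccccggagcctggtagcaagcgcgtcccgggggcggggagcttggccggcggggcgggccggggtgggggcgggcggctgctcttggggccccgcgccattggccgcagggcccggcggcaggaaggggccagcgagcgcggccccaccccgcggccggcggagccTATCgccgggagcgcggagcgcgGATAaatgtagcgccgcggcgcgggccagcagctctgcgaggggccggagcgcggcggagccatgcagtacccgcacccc
TLX3: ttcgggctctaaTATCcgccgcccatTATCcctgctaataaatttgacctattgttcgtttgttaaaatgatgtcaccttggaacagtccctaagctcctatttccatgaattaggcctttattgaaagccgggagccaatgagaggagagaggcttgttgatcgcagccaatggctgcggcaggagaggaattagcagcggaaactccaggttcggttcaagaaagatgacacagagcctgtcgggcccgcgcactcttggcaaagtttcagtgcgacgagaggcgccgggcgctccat

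The upstream TAL1 window held 2 GATA matches, whose first bases lay at -66 and -34 from the start site, and the downstream window held none. The downstream window instead held 3 TGTGGT matches, at -188, -90 and -56, and the upstream window none. HHEX held 2 GATA matches close to its start, at -53 and -30, and TLX3 held 2 far from it, at -238 and -224. Neither motif was found in the LMO1 window. Over all 35116 promoters of the same length, 49.7% held GATA and 13.1% held TGTGGT, so a GATA match is common and the TGTGGT matches of TAL1 are less so. The GC content was 64.3% and 54.3% in the upstream and downstream TAL1 windows, 50.7% in LMO1, 51.3% in TLX3 and 80.3% in HHEX, against a median of 58.7% over all promoters. A match is a description of the letters and not a bound site, and the silent TLX3 and the expressed HHEX held the same number of GATA matches.

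The libraries held from 36792076 to 42842791 counts in HPB-ALL and from 22884785 to 36098045 in KOPTK1. Levels are in TPM, a level per exon length scaled to the same sum in each library. The 18 matched T lineage markers had the highest sums, 3758 to 3905 TPM in HPB-ALL and 5428 to 6477 TPM in KOPTK1. TRBC2 alone ranged from 511 to 607 TPM in HPB-ALL and from 2289 to 3408 TPM in KOPTK1. Of the 18, 7 were higher and 8 lower in HPB-ALL (edgeR adjusted p under 0.05), beside 28.5% and 30.5% of all tested genes. All 18 had a median of at least 1 TPM in both lines. So did 4 of 6 B lineage markers in HPB-ALL and 2 in KOPTK1, and 2 of 6 erythroid and megakaryocyte markers in each line. Of myeloid and fibroblast markers, 0 and 1 did in HPB-ALL and 1 and 2 in KOPTK1. The summed level of 6 B lineage markers was 116 to 132 TPM in HPB-ALL and 19.5 to 71.5 TPM in KOPTK1, nearly all of it CD79A. Myeloid, erythroid and megakaryocyte, and fibroblast markers summed to less than 10 TPM in each library. SHQ1 was at 194, 196, 195, 130.0, 126 and 134 TPM in HPB-ALL libraries 7 to 12 and at 122, 119, 125, 109, 109 and 101 TPM in KOPTK1 libraries 1 to 6. It was thus higher in libraries 7, 8 and 9 than in 10, 11 and 12, and higher in libraries 1, 2 and 3 than in 4, 5 and 6. The columns name no shRNA, so these levels check no label and were not used to assign one.

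The 6 KOPTK1 libraries were not alike. Over the 30831 genes tested, the correlation with the HPB-ALL median was 0.92 in libraries 1, 2 and 3 and 0.85 in libraries 4, 5 and 6, as a description across genes that share a library. No pair of libraries of a line agreed within sampling noise. Library 3 of KOPTK1 also had counts in 16.1% of the genes that were silent in the other libraries (at most 5 counts in all of them), against 5.23% to 7.45% in each of the other 11 libraries. The fits were therefore repeated without libraries 1, 2 and 3, and without libraries 4, 5 and 6, as alternatives chosen after seeing the data, and these values stand beside the factors and beside any other value that they moved by more than 1.5 times or whose call they changed. The shRNA of each library is not known, so an effect of the knockdown and any other difference between these libraries cannot be told apart.

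TAL1 was by far the highest of the 10 factors in both lines, followed by LMO1 in HPB-ALL and by LMO2 in KOPTK1. HPB-ALL libraries held more TAL1, LMO1, HHEX and LYL1 than KOPTK1 libraries, and KOPTK1 libraries held more LMO2. TLX1, TLX3 and MEF2C were at or near 0 in nearly all libraries. Of the 10 factors, 5 (TAL1, LMO1, LMO2, LYL1 and HHEX) had a mean of at least 0.5 TPM over the 12 libraries and were tested, and all 5 differed between the lines (edgeR quasi-likelihood test, adjusted p under 0.05 over all 30831 genes). The background was high: 59.1% of all tested genes were called, 28.5% as higher and 30.5% as lower in HPB-ALL. With a change of at least 2-fold added, 3 of the 5 (TAL1, LMO1 and LMO2) remained called, against 15.6% of all tested genes. TAL1 and LMO1 were then the 2 higher in HPB-ALL (5.53% of all tested genes) and LMO2 the 1 lower (10.1%). The other 5 factors did not reach the minimum, and LMO2 reached it only through KOPTK1, so these counts give no support for the group as a whole.

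**Figure D1:**
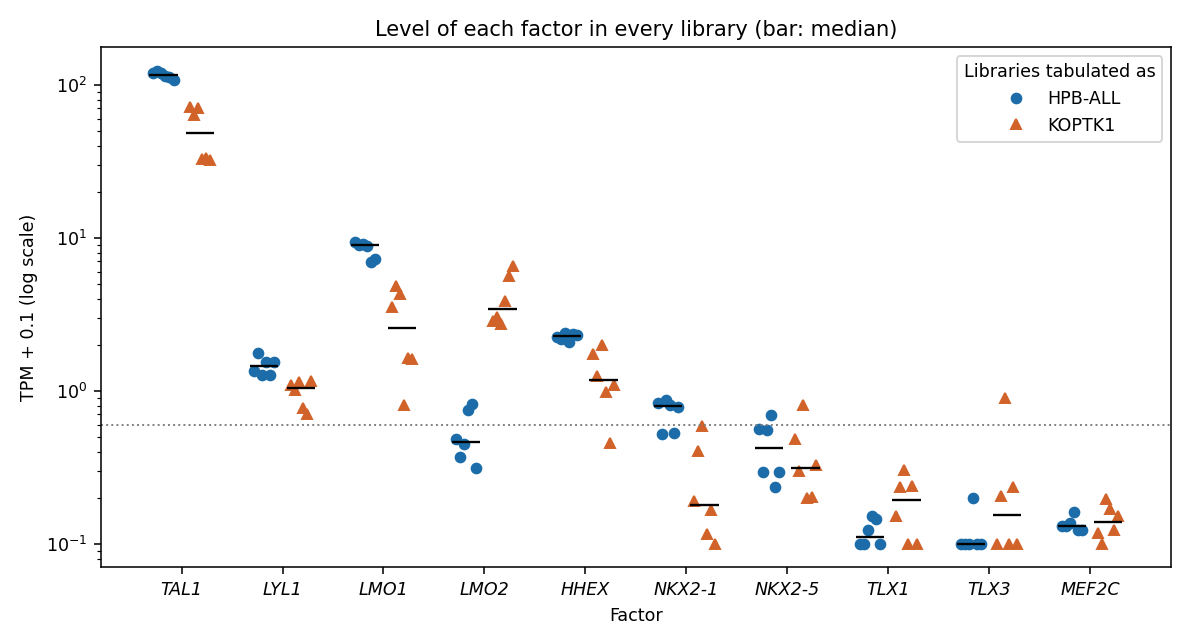
TPM + 0.1 on a log axis for the 10 factors, with 6 HPB-ALL libraries as circles, 6 KOPTK1 libraries as triangles, the median of each line as a bar, and a dotted line at the minimum mean of 0.5 TPM. TAL1 lies at or above 32.2 TPM in every library, while TLX1, TLX3 and MEF2C lie at or near the floor of the axis in most.

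TAL1 (ENSG00000162367, chr1:47216290-47231715, GRCh38, minus strand, 7 exon intervals in the tables) ranged from 108 to 123 TPM in HPB-ALL with a median of 117. In KOPTK1 it ranged from 32.2 to 71.0 TPM with a median of 48.4. By median level it ranked 1554th of 38265 genes with a median above 0 in HPB-ALL and 4811th of 38927 in KOPTK1. The ranges of the lines did not overlap, which was so for 40.0% of all tested genes, and for 21.3% with HPB-ALL higher. Within KOPTK1, libraries 1, 2 and 3 held 71.0, 63.6 and 70.0 TPM and libraries 4, 5 and 6 held 32.4, 33.3 and 32.2 TPM, so that the level within the line was far from even. TAL1 was 2.24-fold higher in HPB-ALL (log2 fold change 1.17 ± 0.19 SE, edgeR adjusted p = 0.000118). The log2 fold change was 1.78 without KOPTK1 libraries 1, 2 and 3 and 0.75 without libraries 4, 5 and 6, and was called either way.

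TAL1 made up 88.9% to 90.7% of the summed TPM of the 10 factors in HPB-ALL and 75.8% to 88.4% in KOPTK1. These libraries thus held TAL1 at a level above that of all the other 9 factors together. An antisense gene, ENSG00000226252, overlaps TAL1 and ranged from 18.3 to 20.4 TPM in HPB-ALL and from 1.86 to 9.89 TPM in KOPTK1 (log2 fold change 1.75 ± 0.36 SE, edgeR adjusted p = 0.000783). Its log2 fold change was 3.25 without KOPTK1 libraries 1, 2 and 3 and 1.07 without libraries 4, 5 and 6. The kit named in the methods does not mark strand, so reads from the overlap cannot be assigned to either gene, and TAL1 had counts that were not whole numbers in 6 of 12 libraries. STIL, the upstream neighbour whose joining to TAL1 by deletion is a known T-ALL lesion, ranged from 82.6 to 88.5 TPM in HPB-ALL and from 66.3 to 77.3 TPM in KOPTK1 (log2 fold change 0.20 ± 0.03 SE, edgeR adjusted p = 0.000108). Gene totals do not show whether TAL1 was read from its own start sites or from a fused STIL transcript.

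LYL1 (ENSG00000104903, chr19:13099033-13102867, minus strand), the close relative of TAL1, was low in both lines. It ranged from 1.16 to 1.67 TPM in HPB-ALL with a median of 1.34, and from 0.61 to 1.06 TPM in KOPTK1 with a median of 0.94. The ranges did not overlap, but the values rest on 26 to 38.5 counts per HPB-ALL library and 9 to 21 per KOPTK1 library. LYL1 was 1.48-fold higher in HPB-ALL (log2 fold change 0.57 ± 0.18 SE, edgeR adjusted p = 0.0134). Without KOPTK1 libraries 4, 5 and 6 the change was 0.44 and no longer passed (edgeR adjusted p = 0.117), and over all alternatives the adjusted p ranged from 0.0104 to 0.117.

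LMO1 (ENSG00000166407, chr11:8224304-8268716, minus strand), a cofactor often expressed together with TAL1 in T-ALL, ranged from 6.84 to 9.32 TPM in HPB-ALL with a median of 8.81. In KOPTK1 libraries 1, 2 and 3 held 3.44, 4.76 and 4.17 TPM, and libraries 4, 5 and 6 held 0.70, 1.54 and 1.51 TPM. Every HPB-ALL library was above every KOPTK1 library, and library 4 of KOPTK1 rested on 11 counts. LMO1 was 2.91-fold higher in HPB-ALL (log2 fold change 1.54 ± 0.29 SE, edgeR adjusted p = 0.000407). The log2 fold change was 2.69 without KOPTK1 libraries 1, 2 and 3 and 0.99 without libraries 4, 5 and 6.

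LMO2 (ENSG00000135363, chr11:33858576-33892289, minus strand), the second LIM-only cofactor, was the one tested factor with a higher level in KOPTK1. It ranged from 0.21 to 0.72 TPM in HPB-ALL with a median of 0.37, on 8 to 26 counts per library. In KOPTK1 libraries 1, 2 and 3 held 2.74, 2.92 and 2.61 TPM, and libraries 4, 5 and 6 held 3.77, 5.50 and 6.45 TPM. The ranges were apart by a wide margin. KOPTK1 libraries 4, 5 and 6, which held less TAL1 and LMO1 than libraries 1, 2 and 3, held more LMO2. This order did not hold for LMO1 within libraries 4, 5 and 6, where library 4 had the least of both LMO1 and LMO2. LMO2 was 9.52-fold higher in KOPTK1 (log2 fold change -3.25 ± 0.32 SE, edgeR adjusted p = 1.36e-06), a larger absolute change than in all but 2.04% of the tested genes. It was -3.66 without KOPTK1 libraries 1, 2 and 3, -2.71 without libraries 4, 5 and 6, and -1.76 when 1 TPM was added before taking logs.

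The balance of the 2 LIM-only genes differed between libraries. LMO1 exceeded LMO2 by 9.54- to 33.3-fold in every HPB-ALL library. In KOPTK1 the ratio of LMO1 to LMO2 ran from 0.19 to 1.63, above 1 in libraries 1, 2 and 3 and below 1 in libraries 4, 5 and 6. TAL1 exceeded LMO2 by 158- to 502-fold in HPB-ALL and by 4.99- to 26.8-fold in KOPTK1. LMO2 is counted over 2417 bases of exon and LMO1 over 1569, and the ratios are of TPM, per length.

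On a scale where KOPTK1 library 6, the library least like HPB-ALL, is 0% and the HPB-ALL median is 100%, KOPTK1 libraries 1, 2 and 3 stood at 46.0%, 37.2% and 44.8% for TAL1. They stood at 26.4%, 44.5% and 36.4% for LMO1 and at 61.0%, 58.0% and 63.1% for LMO2. Over the 436 genes at least 16 times higher in library 6 than in HPB-ALL, the median place of these libraries was 43.4%, 42.5% and 41.9%, and over the 297 genes at least 16 times lower it was 54.9%, 53.5% and 51.8%. LMO2 in these libraries lay above the upper quartile of that first gene set (54.9%, 54.8% and 55.9%). LMO1 in library 1 lay below the lower quartile of the second set (31.2%). TAL1, LMO1 and LMO2 were each less than 16 times apart on this scale and so belong to neither set. Library 6 was chosen as the end of the scale after seeing the data. Both gene sets were also picked by the values of library 6, which by itself moves the other KOPTK1 libraries toward HPB-ALL in them. The medians and quartiles of these sets are therefore no yardstick for the factors. In libraries 4 and 5, TAL1 stood at 0.27% and 1.26%, LMO1 at -11.1% and 0.40% and LMO2 at 44.1% and 15.6%, where the medians of the first set were 3.44% and 0.64% and those of the second 14.4% and 15.4%. TAL1 and LMO1 in libraries 1, 2 and 3 stood partway to HPB-ALL, while LMO2 varied among libraries 4, 5 and 6 as well. What placed these libraries between the lines was not tested.

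**Figure D2:**
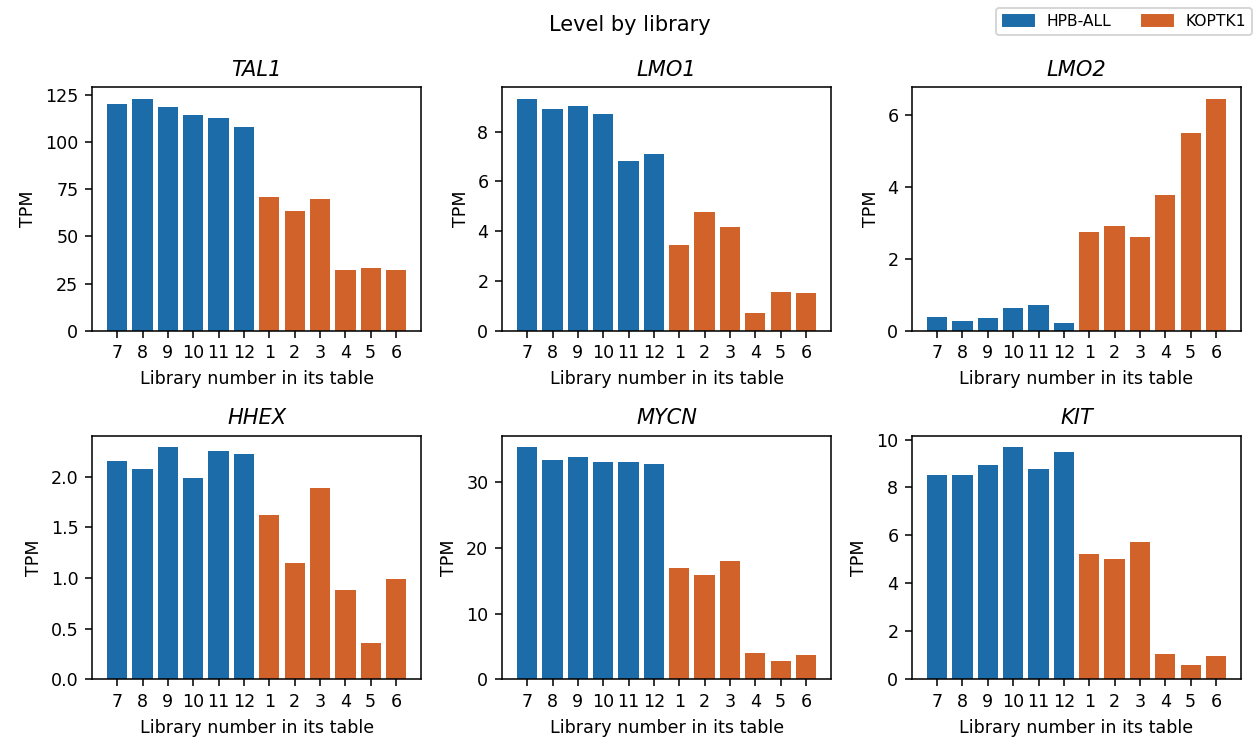
TPM of TAL1, LMO1, LMO2, HHEX, MYCN and KIT in each library, on axes that start at 0 and differ between panels, with HPB-ALL libraries first. KOPTK1 libraries 1, 2 and 3 lie between the HPB-ALL libraries and KOPTK1 libraries 4, 5 and 6 for all 6 genes, and HPB-ALL is the lower end for LMO2 and the higher end for the others.

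HHEX (ENSG00000152804, chr10:92689951-92695646, plus strand), a homeobox factor of early progenitors and a known target of LMO2, ranged from 1.99 to 2.29 TPM in HPB-ALL with a median of 2.19. In KOPTK1 it ranged from 0.35 to 1.89 TPM with a median of 1.07, with libraries 1 and 3 at 1.63 and 1.89 TPM and library 5 at 0.35 TPM on 8 counts. The ranges were apart, by 0.1 TPM or less at their nearest. HHEX was 1.78-fold higher in HPB-ALL (log2 fold change 0.84 ± 0.24 SE, edgeR adjusted p = 0.00721), opposite in direction to LMO2. It was 1.505 without KOPTK1 libraries 1, 2 and 3 and 0.45 without libraries 4, 5 and 6 (edgeR adjusted p = 0.0279).

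**Figure D3:**
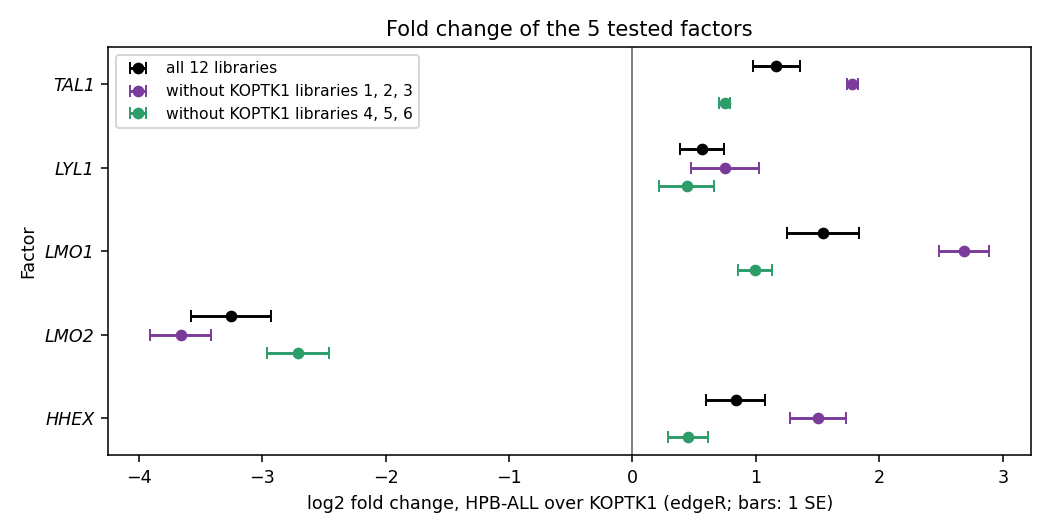
Log2 fold change of HPB-ALL over KOPTK1 for the 5 tested factors (edgeR, bars of 1 SE), with all 12 libraries and with either set of 3 KOPTK1 libraries left out. LMO2 lies below 0 and the other 4 above 0 in each fit. Between the 2 fits with libraries left out, TAL1, LMO1, LYL1 and HHEX move by more than 1.5 times and LMO2 from -3.66 to -2.71.

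The factors under the minimum level were examined by their counts and, for NKX2-1 and NKX2-5, by an exact permutation test on log2(TPM + 0.1) (two-sided, 924 splits of 6 against 6, smallest possible p = 0.00216). This scale understates the changes of low genes. The test was run on all 10 factors and on ENSG00000226252, 11 tests in all, and gave the smallest possible p for each of the 5 tested factors and for ENSG00000226252. NKX2-1 (ENSG00000136352, chr14:36516392-36521149, minus strand), a lung and thyroid factor activated in a subset of T-ALL, ranged from 0.42 to 0.77 TPM in HPB-ALL with a median of 0.70. In KOPTK1 it ranged from 0 to 0.49 TPM with a median of 0.08, and only library 3 overlapped the HPB-ALL range. The mean log2 difference was 1.75 (exact permutation p = 0.00649, n = 6 and 6). It was 2.51 without KOPTK1 libraries 1, 2 and 3 and 0.99 without libraries 4, 5 and 6. NKX2-1 overlaps NKX2-1-AS1, SFTA3 and ENSG00000283098, and its counts were not whole in 9 of 12 libraries, so its level is uncertain.

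NKX2-5 (ENSG00000183072, chr5:173232109-173235357, minus strand), a heart factor activated in rare T-ALL by translocation, ranged from 0.13 to 0.59 TPM in HPB-ALL and from 0.10 to 0.71 TPM in KOPTK1. The lines overlapped nearly throughout, on 2 to 19 counts per library. The mean log2 difference of 0.25 did not pass (exact permutation p = 0.522, n = 6 and 6), and it turned to -0.27 without KOPTK1 libraries 4, 5 and 6. A difference in NKX2-5 was not detectable at this depth.

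TLX3 (ENSG00000164438, chr5:171309284-171312134, plus strand), a homeobox oncogene placed under T-cell regulatory elements by translocation, had no count in 5 of 6 HPB-ALL libraries and 2 counts in library 10. A count of 0 allows up to 3 counts, which is 0.13 to 0.15 TPM in these libraries. In KOPTK1, 3 libraries had none, libraries 2 and 5 had 2 counts each, and library 3 had 16 counts or 0.80 TPM. The TLX3 expression for which HPB-ALL is commonly listed was thus not seen in the libraries of the HPB-ALL table, which held TAL1 and LMO1. The identity of these libraries was not tested, and HPB-ALL here means the libraries tabulated under that name. NPM1, a nucleolar protein gene 74982 bases from TLX3, ranged from 549 to 611 TPM over all libraries.

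TLX1 (ENSG00000107807, chr10:101130505-101137789, plus strand), the relative of TLX3, had 0 to 2 counts per HPB-ALL library and 0 to 8 per KOPTK1 library, the 8 counts again in library 3. MEF2C (ENSG00000081189, chr5:88717117-88904257, minus strand), a marker of immature T-ALL, had 3 to 7 counts in HPB-ALL and 0 to 11 in KOPTK1, with the 11 counts in library 3. Over its 8644 bases of exon, MEF2C reached at most 0.0946 TPM. The exact permutation p was 0.182 for TLX3, 0.0996 for TLX1 and 0.697 for MEF2C. No fold change is given for these 3 genes, since most libraries lay at or near the counting floor. KOPTK1 library 3, which had counts in many otherwise silent genes, thus held the highest count of TLX1, TLX3 and MEF2C, and also the highest KOPTK1 counts of NKX2-1 and NKX2-5. Counting floors cover counting error only.

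In order of median level, HPB-ALL held TAL1, LMO1, HHEX, LYL1, NKX2-1, LMO2, NKX2-5, MEF2C, TLX1 and TLX3. Neighbours in this order were apart, except that NKX2-1 overlapped LMO2, LMO2 overlapped NKX2-5, MEF2C overlapped TLX1 and TLX1 overlapped TLX3. In KOPTK1 the order was TAL1, LMO2, LMO1, HHEX, LYL1, NKX2-5, TLX1, NKX2-1, TLX3 and MEF2C. There only TAL1 stood apart from its neighbour, and every following pair overlapped.

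Partners of the TAL1-LMO complex were present in both lines. All 12 partners were tested, of which 5 were higher and 5 lower in HPB-ALL and 2 did not pass, beside 28.5% higher and 30.5% lower of all tested genes. Without KOPTK1 libraries 1, 2 and 3, 6 were higher and 6 lower, beside 32.0% and 32.1% of all tested genes. Without libraries 4, 5 and 6, 2 were higher and 4 lower, beside 22.8% and 24.4%. The partners had a median log2 fold change of -0.03, beside -0.03 over all tested genes. RUNX1, a DNA-binding partner, ranged from 244 to 268 TPM in HPB-ALL and from 276 to 295 TPM in KOPTK1. TCF12, an E protein, had a log2 fold change of 0.01 ± 0.03 SE (edgeR adjusted p = 0.774), with a sign that changed between alternatives. It passed without KOPTK1 libraries 1, 2 and 3 (0.08, edgeR adjusted p = 0.00729) and with library medians set equal in limma (0.12, limma adjusted p = 0.0347). GATA3, the T-cell GATA factor, was lower in HPB-ALL by a small margin (log2 fold change -0.21 ± 0.04 SE, edgeR adjusted p = 0.000433), but did not pass with library medians set equal in limma (-0.10, limma adjusted p = 0.0683). GATA1 and GATA2, the factors of the erythroid and stem cell complex, stayed below 2 TPM in each library. The one partner past 2-fold was TCF4, an E protein better known from B and dendritic cells, which ranged from 2.93 to 3.50 TPM in HPB-ALL and from 5.97 to 8.29 TPM in KOPTK1 (log2 fold change -1.20 ± 0.10 SE, edgeR adjusted p = 1.72e-07).

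Genes linked to the TAL1 complex in T-ALL moved in both directions and none passed 2-fold. Of the 8 reported, 2 were higher in HPB-ALL, 4 lower, and 2 did not pass, with a median log2 fold change of -0.09, beside the 59.1% called of all tested genes. Without KOPTK1 libraries 1, 2 and 3, 4 were higher and 4 lower, beside 64.1% called of all tested genes. Without libraries 4, 5 and 6, 2 were higher and 4 lower, beside 47.2%. TRIB2, a pseudokinase, was higher in HPB-ALL (log2 fold change 0.50 ± 0.10 SE, edgeR adjusted p = 0.000457), at 0.79 without KOPTK1 libraries 1, 2 and 3 and 0.28 without libraries 4, 5 and 6. MYB, which belongs to the same circuit, was lower (-0.67 ± 0.06 SE, edgeR adjusted p = 2.57e-07). ALDH1A2, a retinoic acid enzyme switched on with TAL1, was at 198 to 234 TPM in HPB-ALL and 188 to 226 TPM in KOPTK1 and did not pass (edgeR adjusted p = 0.645), though it did without KOPTK1 libraries 1, 2 and 3 (log2 fold change 0.13, edgeR adjusted p = 0.0138). The ranges of ALDH1A2 overlapped, while those of TAL1 did not.

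Among 5 genes linked to LMO2, 4 were higher in HPB-ALL and 1 was lower, beside 28.5% higher and 30.5% lower of all tested genes. MYCN, a MYC family oncogene, ranged from 32.7 to 35.3 TPM in HPB-ALL and from 2.83 to 17.96 TPM in KOPTK1 (log2 fold change 1.65 ± 0.37 SE, edgeR adjusted p = 0.0015). Its log2 fold change was 3.19 without KOPTK1 libraries 1, 2 and 3 and 0.96 without libraries 4, 5 and 6. KIT, a stem cell receptor, ranged from 8.52 to 9.67 TPM in HPB-ALL and from 0.58 to 5.75 TPM in KOPTK1 (1.47 ± 0.42 SE, edgeR adjusted p = 0.00714), or 3.33 and 0.73 in the same fits. HHEX and LYL1, described above, are the other two that were higher, and LYL1 did not pass without libraries 4, 5 and 6. NFE2, an erythroid factor, was lower (-0.42 ± 0.08 SE, edgeR adjusted p = 0.000599). Of the 5 genes linked to TLX factors, 4 were tested, 3 were lower in HPB-ALL and none was higher, in these 2 fits too, while ALDH1A1 was below the minimum. Among all tested genes, 30.5% were lower with all libraries, and 32.1% and 24.4% in these 2 fits. PTCRA, the pre-T-cell receptor chain, had a log2 fold change of -0.76 ± 0.11 SE (edgeR adjusted p = 5.55e-05).

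**Figure D4:**
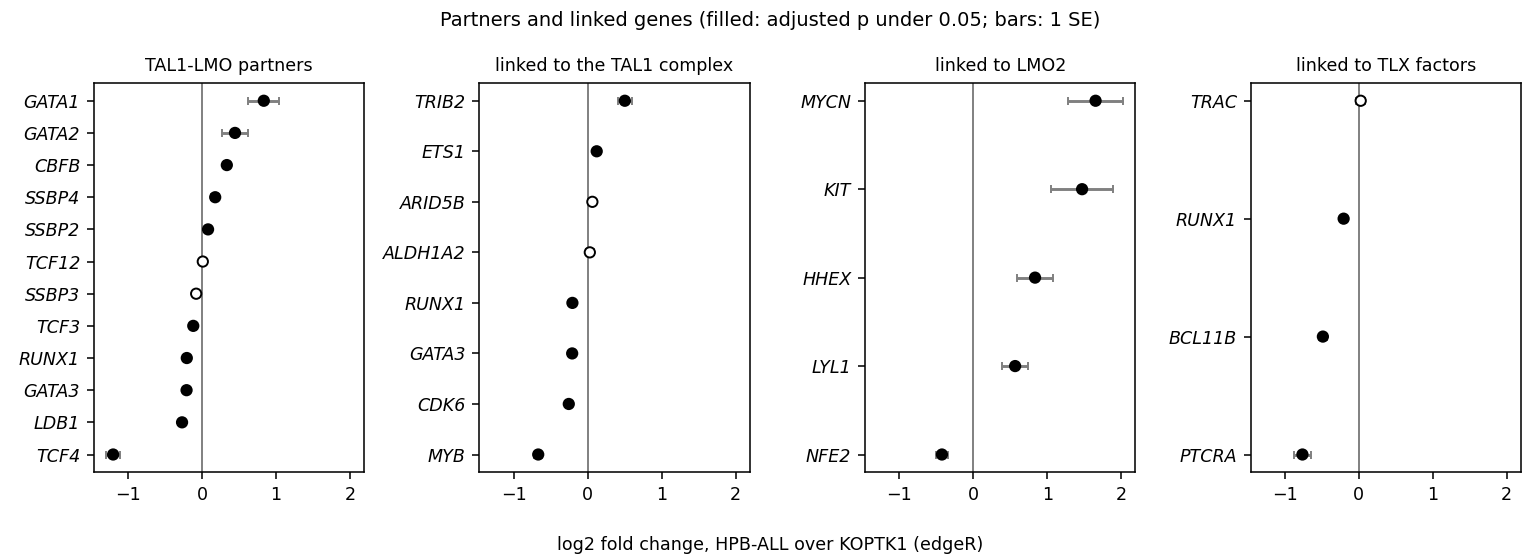
Log2 fold change of HPB-ALL over KOPTK1 (edgeR, bars of 1 SE, filled points at an adjusted p under 0.05) for partners of the TAL1-LMO complex and genes linked to TAL1, LMO2 and TLX factors. Among the partners, TCF4 lies farthest to the left and GATA1 farthest to the right, followed by GATA2. MYCN and KIT lie farthest to the right among the genes linked to LMO2.

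Paralogs and other T-ALL oncogenes gave a mixed picture. LMO4, a LIM-only relative widely expressed in tissues, was higher in HPB-ALL at 13.96 to 15.8 TPM against 1.10 to 7.55 TPM in KOPTK1 (log2 fold change 1.65 ± 0.39 SE, edgeR adjusted p = 0.00218), or 3.29 without KOPTK1 libraries 1, 2 and 3 and 0.95 without libraries 4, 5 and 6. Of 12 paralogs, 8 were tested, 3 were higher in HPB-ALL, 3 lower, and 2 did not pass, beside 59.1% called of all tested genes. In both fits with libraries left out, 3 were higher and 2 lower. Of the 10 other oncogenes, 5 were tested, of which HOXA5, HOXA7 and HOXA13 were higher in HPB-ALL and MYB and BCL11B lower, in all 3 fits. Among all tested genes, 64.1% were called without KOPTK1 libraries 1, 2 and 3 and 47.2% without libraries 4, 5 and 6. HOXA7, a homeobox gene of the HOXA subtype, ranged from 16.05 to 18.3 TPM in HPB-ALL and from 1.44 to 9.91 TPM in KOPTK1, with log2 fold changes of 3.25 and 0.82 without either set of 3 KOPTK1 libraries, while HOXA9 was at or below 0.11 TPM in each library. HOXA10, HOXA11, OLIG2 and SPI1 also stayed under the minimum.

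Within 100 kb of the 10 factors lay 75 other gene rows, of which 32 were tested, with 8 higher and 8 lower in HPB-ALL and 16 not past the threshold, a called share of 50% beside 59.1% of all tested genes. Without KOPTK1 libraries 1, 2 and 3, 12 were higher and 9 lower, beside 32.0% and 32.1% of all tested genes. Without libraries 4, 5 and 6, 6 were higher and 4 lower, beside 22.8% and 24.4%. Around LMO2, the one gene tested was FBXO3, at 6.38 to 7.36 TPM in HPB-ALL and 6.87 to 8.02 TPM in KOPTK1 (log2 fold change -0.16 ± 0.06 SE, edgeR adjusted p = 0.0251, and 0.144 without KOPTK1 libraries 4, 5 and 6), so that the 9.52-fold difference of LMO2 was not shared by it. Around LMO1, RIC3 stayed below 1 TPM. Near TLX1, KAZALD1 was higher in HPB-ALL (log2 fold change 1.32 ± 0.21 SE, edgeR adjusted p = 0.000107, 1.95 and 0.93 without either set of 3 KOPTK1 libraries) while TLX1 itself was near 0. Near NKX2-5, STC2 was higher (1.43 ± 0.30 SE, edgeR adjusted p = 0.000952, 2.66 and 0.84 in those fits) and CREBRF lower (-1.09 ± 0.11 SE, edgeR adjusted p = 1.19e-06), while NKX2-5 did not pass.

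The genes most like each tested factor were named by Pearson r of log2(TPM + 0.1) over the 12 libraries, which share 2 lines and the split within KOPTK1. The unnamed ENSG00000224400, MTO1 and ELOVL5 were at r = 0.998 with TAL1, and 4028 genes exceeded 0.95. LMO1 was most like TUBAL3 (r = 0.997), CAMK2N2 (r = 0.994) and MICU3 (r = 0.991). LMO2 was most like LINC01291 (r = 0.992), HERC6 and LINC01426 (r = 0.988 for both). For LYL1 and HHEX only 6 and 54 genes exceeded 0.95, with PSMD14-DT (r = 0.972), ENSG00000268870 (r = 0.967) and ENSG00000284458 (r = 0.959) nearest to LYL1. Nearest to HHEX were ENSG00000235105 (r = 0.984), ENSG00000268777 (r = 0.983) and ENSG00000274303 (r = 0.981). With 4028, 2031 and 1589 genes above 0.95, the names for TAL1, LMO1 and LMO2 describe the pattern of the libraries. Those for LYL1 and HHEX, with fewer such genes, likewise describe only these 12 libraries.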

How the data were processed

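Paired-end reads of 150 bp were obtained from rRNA-depleted RNA. The submitters' processing notes name Trimmomatic 0.36, STAR 2.5.4b, Picard 2.18.7, featureCounts 1.6.2, edgeR 3.22.3 and hg38. The values the authors deposited are expected counts per gene, made by featureCounts from aligned reads, and were not normalized. Some are not whole numbers, and the counting setting behind this is not given in the sources used here. Each table also holds 5 columns of the authors' own comparison (log2 fold change, average log2 CPM, F, p-value and FDR), which were not used. All 12 count columns were used. Their headers match no sample label. Each was tied to a cell line because the description of exactly 6 samples of that line names its table, and none was tied to an shRNA.

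TPM was computed from counts and summed exon length. Genes with a mean of at least 0.5 TPM over 12 libraries were tested for HPB-ALL against KOPTK1 with edgeR 4.0.16 (R 4.3.3) on counts rounded to whole numbers, with TMM scaling, the quasi-likelihood F test and Benjamini-Hochberg adjustment over all tested genes. The SE was the absolute log2 fold change divided by the square root of F. Single values were compared with an exact two-sided permutation test. The planned tests of shSHQ1 against shGFP were not run. Fits were tested on simulated counts with known changes, drawn for independent libraries without the split seen within KOPTK1. That simulation therefore does not show how the fits behave with such a split.

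The factors and gene lists were chosen with earlier results of these data known. Named were the factors, up to 8 genes of each list, genes within 100 kb and the 3 genes most like each tested factor. Symbols were matched to 95.9% of identifiers, and TRBC1 had no match. In the list of genes linked to the TAL1 complex, 1 gene is not reported here. Alternatives were DESeq2 1.42.0, limma 3.58.1 with other pseudocounts or equal medians, other filters and libraries left out. Totals of 22884785 to 42842791 counts per library limit the precision of the low factors.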

Additional observations from a re-analysis of the deposited data

Results flagged for a closer look

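Each factor and SHQ1 were examined for a library far from the others in each line, 22 sets of 6 libraries in all. For normally distributed values, chance alone would flag about 1 in 20 such sets, a rate that does not hold for factors near 0 counts. A set with 1 library above 0 and the other 5 at 0 is always flagged. TLX3 stood out in KOPTK1, where library 3 held 0.796 TPM (16 counts) and the next library 0.135 TPM. This was the library with counts in many genes that were silent elsewhere. TLX3 also stood out in HPB-ALL, where library 10 held 0.0995 TPM on 2 counts and the other 5 libraries held none, which is below the limit that a count of 0 allows.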

How the results depend on the processing

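TAL1, LMO1, LMO2 and HHEX kept their direction and passed the threshold in each of the 21 alternatives run, with log2 fold changes of 0.75 to 1.78 for TAL1, 0.99 to 2.69 for LMO1, -3.66 to -1.76 for LMO2 and 0.45 to 1.505 for HHEX. LYL1 kept its direction in 21 and passed in 20. Without KOPTK1 libraries 4, 5 and 6, an alternative chosen after seeing the data, it was 0.44 (edgeR adjusted p = 0.117), and in the same setting NKX2-5 turned from 0.25 to -0.27, neither past the threshold. The cause was not tested. Leaving out 1 library at a time gave 1.06 to 1.28 for TAL1, 1.35 to 1.76 for LMO1, -3.46 to -3.07 for LMO2, 0.48 to 0.62 for LYL1 and 0.65 to 1.03 for HHEX. The number of genes called was 18213 in the edgeR fit, 17082 to 18582 with 1 library left out, 18097 with DESeq2 and 14546 to 19756 over all alternatives. Of the calls, 48.3% were higher in HPB-ALL in edgeR, 53.0% in limma and 59.4% in limma with the library medians set equal, and the respective median log2 fold changes were -0.03, 0.03 and 0.09. Among the other named genes, TCF12 turned to -0.0031 with a minimum of 1 TPM, to -0.043 without KOPTK1 libraries 4, 5 and 6 and ran from -0.010 to 0.025 with 1 library left out, and ALDH1A2 turned to -0.056 without libraries 4, 5 and 6, none of these past the threshold. FBXO3 did not pass in 8 alternatives. No paired analysis was possible because the count columns carry no replicate number of the labels. The alternatives planned for the shRNA comparisons and for RPKM as deposited were not run, since the columns name no shRNA and the tables hold counts. Depth limits NKX2-1, NKX2-5, TLX1, TLX3 and MEF2C, at 0 to 37 counts per library.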
